A study of Mus musculus with 12 samples.

Results

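The genes described here were the granzymes and perforin of T cells taken from mouse pancreatic tumors, measured on the nCounter Mouse Metabolic Pathways panel. They were chosen by name, as the endogenous probes that start with Gzm or that equal Prf1. The rule gave 4 genes, Gzma, Gzmb, Gzmd and Prf1, of the 748 endogenous genes of the panel. All 4 were among the 640 genes that were above background in at least 3 lanes and were tested.

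The study asked how T cells in a pancreatic tumor respond to a peptide antagonist of the receptors for vasoactive intestinal peptide (VIP), given with or without an antibody against the checkpoint receptor PD-1. KPC-Luc cells, a luciferase-carrying line of mouse pancreatic ductal adenocarcinoma, were grown under the skin of female C57BL/6 mice, aged 8 to 10 weeks per the methods. Cells carrying CD90.2, a surface protein of T cells and some other cells, were pulled from the dissociated tumors with magnetic beads to a stated purity of 80 to 85%, and their RNA was hybridized to the panel, with 1 lane per mouse. On this platform a color-coded probe is hybridized to each RNA molecule and the probes are counted directly, so no amplification step is involved.

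There were 12 mice, 3 in each of 4 groups, and all carried tumors. Scram+IgG mice received a scrambled peptide and an isotype control antibody. ANT008+IgG mice received the VIP receptor antagonist ANT008 and the isotype antibody. Scram+aPD-1 mice received the scrambled peptide and anti-PD-1, and ANT008+aPD-1 mice received both agents. The peptide dose was 10 µg each day and the antibody dose 200 µg every 3 days, starting 6 to 7 days after implantation and lasting 10 days. The labels number the mice 1 to 3 within each group and do not say that equal numbers share anything. No tumor-free or untreated group was part of these lanes, and the cell line was 1 line grown outside the pancreas.

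Granzymes are serine proteases that cytotoxic T cells and natural killer cells store in granules, and perforin, the product of Prf1, forms the pores through which they enter a target cell. Granzyme B cleaves after aspartate and activates caspases, granzyme A cleaves after basic residues and kills by a route that does not need caspases, and granzyme D belongs to a group of closely related mouse granzymes found mainly in strongly activated killer cells. The mouse genome holds more granzymes than the panel. The RefSeq annotation of GRCm38.p6 lists 10 granzyme genes, of which 3 had a probe. Chromosome 14 holds 7 of them, in the order Gzme, Gzmd, Gzmg, Gzmn, Gzmf, Gzmc and Gzmb. Gzma and Gzmk lie on chromosome 13, and Gzmm lies on chromosome 10, as Prf1 does.

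Each probe pair of the panel binds 100 bases of 1 transcript, and the targets are shown because they fix which RNA was counted. Capitals mark the 20 bases that hold the codon of the catalytic histidine, a residue that all granzymes need for cleavage. The target of Gzmb starts at position 1020 of its transcript, and its first 30 bases are given.
Gzma: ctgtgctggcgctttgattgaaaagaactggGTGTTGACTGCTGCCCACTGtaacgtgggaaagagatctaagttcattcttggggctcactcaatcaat
Gzmb: ttctgccaccatgctgtgacaacccaactg
Gzmd: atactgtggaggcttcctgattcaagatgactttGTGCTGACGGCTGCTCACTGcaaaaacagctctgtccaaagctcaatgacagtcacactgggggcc
Prf1: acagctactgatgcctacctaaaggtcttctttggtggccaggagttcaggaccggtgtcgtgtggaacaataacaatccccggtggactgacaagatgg
The probes of Gzma and Gzmd thus sit over the same part of the protease, while that of Prf1 starts at position 1350 of its transcript. Because Gzmd has close neighbors on chromosome 14 without probes of their own, whether its probe also counts their RNA was not tested, and its values are uncertain in this respect.

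The lanes differed widely in depth. The summed count of the endogenous genes ran from 5776 to 1486646, and the 2 lowest lanes were ANT008+aPD-1 mice 1 and 3. The 8 negative control probes of a lane set its background, as their mean plus 2 SD, and it ran from 9.94 to 28.2 counts. Counts were divided by the size of the lane, the geometric mean of the housekeeping genes Dnajc14, Oaz1 and Ubb, and are called scaled counts. On that scale a count at background came to 358, 13.8 and 149 in ANT008+aPD-1 mice 1 to 3, against 3.42 to 46.3 in the other 9 lanes. Scram+IgG mouse 1 and ANT008+IgG mouse 1 carried a mark reading FLAG in the deposited file, with no reason given.

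The T cell label was checked against its markers. Of 6 T cell markers 5 were on the panel, the CD3 chains Cd3d, Cd3e, Cd3g and Cd247 and the receptor kinase Lck. They were above background in 59 of 60 combinations of gene and lane, the exception being Cd3e in ANT008+aPD-1 mouse 1. The B cell marker Ms4a1 was above background in 3 of the 12 lanes. However, the myeloid markers Cd14 and Cd68 were above it in all 12, Itgam in 11 and Cd163 in 7. Natural killer cells also make granzymes, and 4 of 8 of their markers were on the panel. Of these, Klrk1 and Klrd1, receptors that T cells share, were above background in all 12 lanes and Ncr1, which defines natural killer cells, in 10. The lanes thus held T cell RNA, and genes of myeloid and natural killer cells were counted beside it. In such bulk RNA, fewer cells of a type and less RNA per cell cannot be told apart.

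The granzymes and perforin were detected widely. Gzma, Gzmb and Prf1 were above background in all 12 lanes and Gzmd in 9. The 3 lanes in which Gzmd was at or below background were Scram+IgG mouse 2, ANT008+IgG mouse 2 and ANT008+aPD-1 mouse 3. Before scaling, the ANT008+aPD-1 lanes did not have high counts of these genes, as the plot of raw counts shows.

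**Figure D1:**
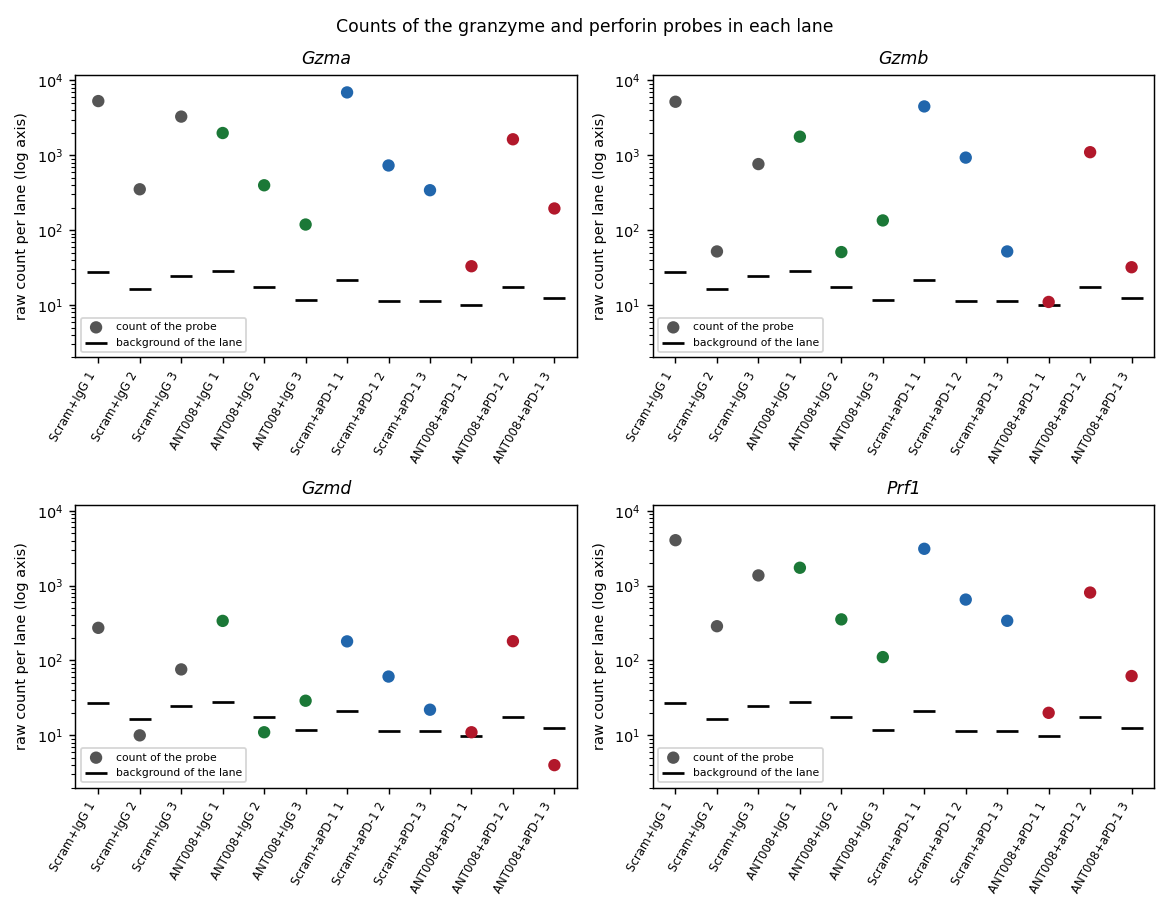
Raw counts of Gzma, Gzmb, Gzmd and Prf1 in each of the 12 lanes on a log axis, 1 point per mouse and colored by group, with the background of the lane as a black line. The lowest red point of Gzmb and that of Gzmd in ANT008+aPD-1 mouse 1, 11 counts each, sit just above the background of 9.94.

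Gzma was counted 5304, 352 and 3290 times in Scram+IgG mice 1 to 3, and 1986, 398 and 119 times in the ANT008+IgG mice. It was counted 6924, 732 and 342 times with Scram+aPD-1 and 33, 1638 and 195 times with ANT008+aPD-1. The raw counts varied with the depth of the lane but did not follow it alone, and they were scaled to compare lanes. Scram+aPD-1 mouse 2 had its 732 counts at a total of 664792, and ANT008+aPD-1 mouse 2 its 1638 at 268678. The size of the lane of ANT008+aPD-1 mouse 1 rested on 12 counts of Dnajc14, 35 of Oaz1 and 63 of Ubb. Its background was 9.94, so its scaled counts are uncertain. Scaled counts of Gzma were 862, 335 and 515 with Scram+IgG, 316, 685 and 238 with ANT008+IgG, 1232, 222 and 1402 in the Scram+aPD-1 mice, and 1189, 1293 and 2346 with ANT008+aPD-1. Each ANT008+aPD-1 mouse was thus above all 6 mice that did not receive anti-PD-1, while the Scram+aPD-1 mice spread from 222 to 1402. Group means were 571 ± 268, 413 ± 239, 952 ± 638 and 1609 ± 640 (SD, n = 3 each), in the same order.

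Gzmb was counted 5196, 52 and 764 times with Scram+IgG, 1774, 51 and 135 times with ANT008+IgG, 4500, 932 and 52 times in the Scram+aPD-1 mice, and 11, 1101 and 32 times with ANT008+aPD-1. Scaled, these were 845, 49.5 and 119, then 282, 87.8 and 269, then 801, 283 and 213, and last 396, 869 and 385. The Scram+IgG mice were the most uneven, with mouse 1 far above mice 2 and 3, and the ANT008+aPD-1 mice lay within their range except for mouse 2. Means were 338 ± 440 with Scram+IgG, 213 ± 109 with ANT008+IgG, 432 ± 321 for Scram+aPD-1 and 550 ± 276 with ANT008+aPD-1 (SD, n = 3 each). The scaled count of 396 in ANT008+aPD-1 mouse 1 rested on 11 counts against a background of 9.94.

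Gzmd was the least abundant of the 4 in counts, though counts of different probes are not levels on 1 scale. It was counted 273, 10 and 76 times with Scram+IgG, 338, 11 and 29 times with ANT008+IgG, 180, 61 and 22 times in mice of the group Scram+aPD-1, and 11, 181 and 4 times with ANT008+aPD-1. Scaled counts were 44.4, 9.52 and 11.9 with Scram+IgG, 53.7, 18.9 and 57.9 with ANT008+IgG, 32.0, 18.5 and 90.2 for Scram+aPD-1, and 396, 143 and 48.1 with ANT008+aPD-1. All 3 ANT008+aPD-1 mice were above all 3 Scram+IgG mice. However, the 396 was again 11 counts in a lane with a scaled background of 358, and the 48.1 was 4 counts in a lane with a scaled background of 149. The value of mouse 2, 143 against a scaled background of 13.8, was the only one of the group that stood well clear of background. Means were 21.9 ± 19.5, 43.5 ± 21.4, 46.9 ± 38.1 and 196 ± 180 (SD, n = 3 each), in the same order.

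Prf1, the gene of perforin, was counted 4044, 287 and 1369 times with Scram+IgG, 1733, 354 and 111 times with ANT008+IgG, 3104, 651 and 339 times in the Scram+aPD-1 mice, and 20, 808 and 62 times with ANT008+aPD-1. Its scaled counts were 658, 273 and 214, then 275, 609 and 222, then 552, 197 and 1389, and last 721, 638 and 746. With ANT008+aPD-1 the 3 mice were close to each other, and their mean of 701 ± 56.8 differed little from the 713 ± 612 of Scram+aPD-1 (SD, n = 3 each). However, the 721 of mouse 1 was 20 counts against a background of 9.94, and the 746 of mouse 3 was 62 counts against 12.4. At such low counts, how close these mice were is uncertain. Scram+IgG and ANT008+IgG had means of 382 ± 241 and 369 ± 210 (SD, n = 3 each).

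**Figure D2:**
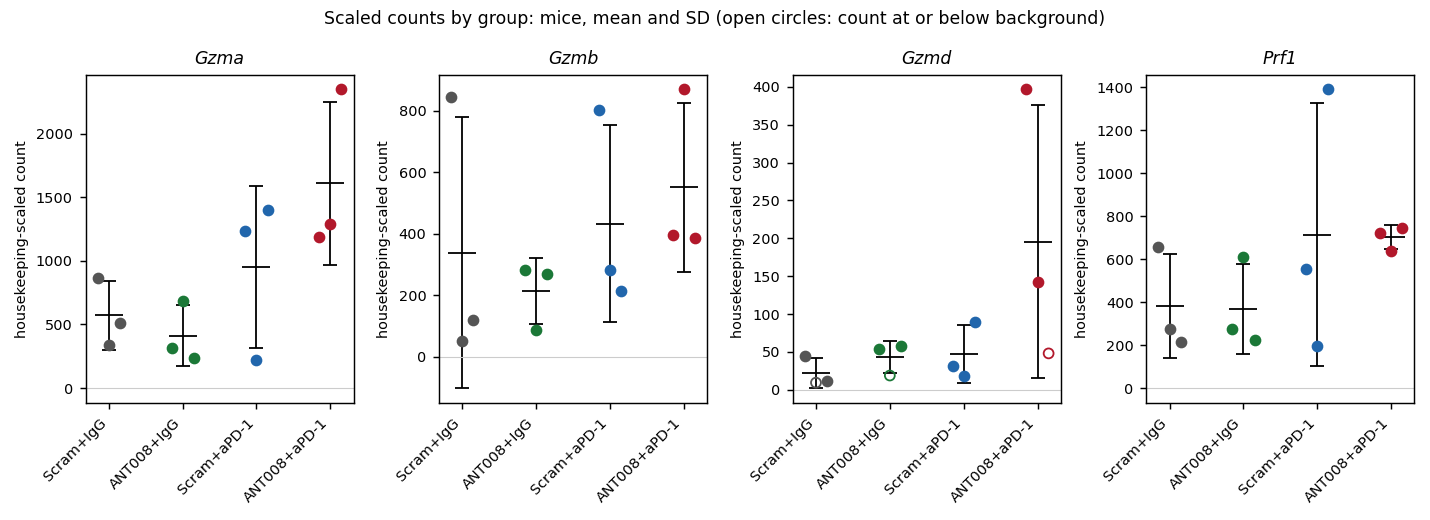
Housekeeping-scaled counts of the 4 genes by group, with 1 point per mouse, the mean as a bar and the SD as whiskers, and open circles where the raw count was at or below background. For Gzma the 3 ANT008+aPD-1 mice, from 1189 to 2346, lie above all mice without anti-PD-1, whereas for Prf1 the Scram+aPD-1 mice span the ANT008+aPD-1 mice.

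In the order of group means, Gzma and Gzmb ran from ANT008+aPD-1 through Scram+aPD-1 and Scram+IgG to ANT008+IgG. For Gzmd the order was ANT008+aPD-1, Scram+aPD-1, ANT008+IgG and Scram+IgG, and for Prf1 Scram+aPD-1, ANT008+aPD-1, Scram+IgG and ANT008+IgG. In none of these orders did neighboring groups separate, since the scaled counts of each group overlapped those of the next.

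The effect of the combination was asked by setting ANT008+aPD-1 against Scram+IgG. All 4 genes had higher fitted values with the combination, as had 56.7% of all tested genes, and no gene of the panel passed the test. By the quasi-likelihood test of edgeR, adjusted over the 640 genes after Benjamini and Hochberg, 0 were called at a false discovery rate (FDR) below 0.1, a percentage of 0, and 82 had an unadjusted p below 0.05, 12.8% of those tested. The smallest adjusted p was 0.242. The log2 fold change of Gzmd was 2.92 (SE 0.88, unadjusted p = 0.00629, adjusted p = 0.309 in edgeR). That of Gzma was 1.50 (SE 0.66, unadjusted p = 0.0432, adjusted p = 0.375 in edgeR). Prf1 had 0.87 (SE 0.67, adjusted p = 0.592 in edgeR) and Gzmb 0.74 (SE 0.90, adjusted p = 0.764 in edgeR), differences about as large as their standard errors. Thus 2 of the 4 had an unadjusted p below 0.05 in the higher direction, as had 9.38% of all tested genes. The same 2 had scaled counts that did not overlap between the groups, as was the case for 7.81% of genes in that direction. For Gzmd the lowest value with the combination was the 48.1 that was not above background, against a highest value of 44.4 with Scram+IgG, so its separation rested on a lane without a measured level. The median of the 4 was 1.19, against 0.12 over all tested genes, and from the highest log2 fold change Gzmd ranked 15, Gzma 71, Prf1 156 and Gzmb 177 of the 640.

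These directions depended on how lanes were scaled and on single mice. When lanes were scaled by the 6 positive control probes, which leaves differences in the amount of RNA in place, the median of all genes became -4.37 and all 4 genes were lower with the combination, Gzmd at -1.90, Gzma at -3.27, Gzmb at -3.47 and Prf1 at -3.70, none with an adjusted p below 0.1 in edgeR. Relative to the median, they were still higher. When Scram+IgG mouse 1, which carried the FLAG mark and the highest Gzma, Gzmb, Gzmd and Prf1 of its group, was left out, Gzmd reached 3.95 (adjusted p = 0.0347 in edgeR) and Gzmb 2.74 (adjusted p = 0.0539 in edgeR), and 84 genes of the panel were called. Without ANT008+aPD-1 mouse 2, the deepest lane of its group, 68 genes were called and Gzmb was at 0.20. Without the 2 lanes of lowest depth, an alternative chosen after seeing the data that leaves only mouse 2 in the group and assumes that it varies as the other groups do, the values were 2.66 for Gzmd, 1.18 for Gzma, 1.36 for Gzmb and 0.74 for Prf1, each with an adjusted p of 0.885 in edgeR. With DESeq2, Gzmd was called (2.85, adjusted p = 0.0285), and 30 genes in all.

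**Figure D3:**
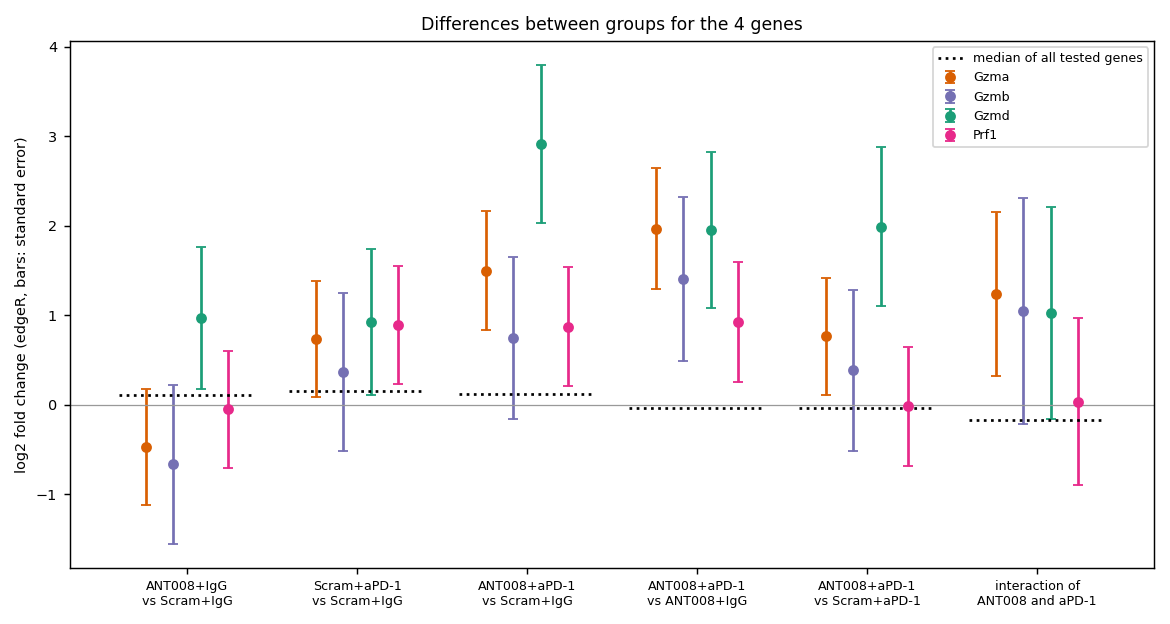
Log2 fold changes from edgeR for the 4 genes in each of the 6 contrasts, with the standard error as bars and the median of all 640 tested genes as a dotted line. The 4 genes lie above the dotted line in 5 of the 6 contrasts, the exception being ANT008+IgG against Scram+IgG, and no point was called at an FDR below 0.1.

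Adding anti-PD-1 to the antagonist was asked by ANT008+aPD-1 against ANT008+IgG. Here the granzymes had log2 fold changes of 1.97 for Gzma, 1.41 for Gzmb and 1.95 for Gzmd, and Prf1 had 0.92. The unadjusted p was 0.0128 for Gzma and 0.0449 for Gzmd, with adjusted p-values of 0.578 for both in edgeR, and 0.615 and 0.621 for Gzmb and Prf1. No tested gene was called at an FDR below 0.1, a percentage of 0, while 50 of 640 had an unadjusted p below 0.05, which was 7.81%, and 5.47% were in the higher direction. Gzma, Gzmb and Prf1 had scaled counts that did not overlap, 3 of the 4 genes, against 6.25% of all genes in that direction. For Gzmb this rested on 11 counts in ANT008+aPD-1 mouse 1, a lane in which a count at background already scaled to 358, above the highest ANT008+IgG value of 282. For these 3 genes the exact permutation test gave p = 0.1 (two-sided), the smallest that 3 mice against 3 allow. The median of the 4 was 1.68, against -0.037 over all tested genes. Without ANT008+aPD-1 mouse 2, 26 genes of the panel were called, and none of the 4 was among them, and Gzmb was at 0.87. Without ANT008+aPD-1 mouse 1, in which it had 11 counts, Gzmd became 1.24, and without ANT008+IgG mouse 2 Prf1 became 1.49. With positive control scaling all 4 turned negative, from -1.52 for Gzma to -2.39 for Prf1, where the median of all genes was -3.71.

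Adding the antagonist to anti-PD-1 was asked by ANT008+aPD-1 against Scram+aPD-1. The log2 fold changes were 1.99 for Gzmd (unadjusted p = 0.0450, adjusted p = 0.751 in edgeR), 0.77 for Gzma, 0.38 for Gzmb and -0.018 for Prf1, with adjusted p-values of 0.768 to 0.997 in edgeR for the last 3. No gene was called at an FDR below 0.1, a percentage of 0, and 40 had an unadjusted p below 0.05, which was 6.25%, with 4.69% in the higher direction. None of the 4 genes separated the groups, against 4.53% of all genes that were higher without overlap. The value of Prf1 lay so close to 0 that it turned positive under several scalings and tests. Without ANT008+aPD-1 mouse 2, 35 genes of the panel were called, none of the 4 among them, and Gzmb was -0.16. Gzmd became 1.28 without ANT008+aPD-1 mouse 1, in which it had 11 counts, and Gzma 0.29 without Scram+aPD-1 mouse 2.

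With either agent alone the log2 fold changes of the 4 genes lay between -0.67 and 0.96. With ANT008+IgG against Scram+IgG, Gzmd was at 0.96 (SE 0.80), Prf1 at -0.052 (SE 0.65), Gzma at -0.47 (SE 0.65) and Gzmb at -0.67 (SE 0.89), each with an adjusted p of 0.999 in edgeR. The values of Gzma and Gzmb ranked 630 and 636 from the highest of the 640 tested genes, and the median of the 4 was -0.26, against 0.11 over all genes. Yet the value of Gzmb rested on Scram+IgG mouse 1, since it became 1.32 without that mouse. Gzma ran from -0.044 without the same mouse to -1.04 without ANT008+IgG mouse 2, and Gzmd was at 2.01 without Scram+IgG mouse 1. With Scram+aPD-1 against Scram+IgG the 4 genes were at 0.73 for Gzma, 0.36 for Gzmb, 0.93 for Gzmd and 0.89 for Prf1, with standard errors of 0.65 to 0.88 and adjusted p-values of 0.988 in edgeR. Their median was 0.81, against 0.15 over all genes, and Prf1 became -0.027 without Scram+aPD-1 mouse 3. In both comparisons 0 genes were called, a percentage of 0, and 3 and 7 genes had an unadjusted p below 0.05, which was 0.469% and 1.09%. None of these was a granzyme or perforin. The scaled counts of all 4 genes overlapped in both comparisons, while 2.97% of all genes in each were higher without overlap.

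The interaction of the agents, which asks whether the combination differed from the sum of the single agents on the log2 scale, was 1.24 for Gzma (SE 0.92), 1.05 for Gzmb (SE 1.27), 1.03 for Gzmd (SE 1.18) and 0.034 for Prf1 (SE 0.93). The adjusted p was 0.993 in edgeR for each, 0 genes were called at an FDR below 0.1, a percentage of 0, and 9 of 640 genes had an unadjusted p below 0.05, which was 1.41%, with 1.09% in the positive direction. Without Scram+IgG mouse 1 the interaction was -0.94 for Gzmb and -0.021 for Gzmd. The 5 pairwise comparisons share groups, so their values are not independent.

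A ratio of counts within a lane needs no scaling and asks whether the genes were high for the amount of T cell RNA in the lane. Each member was therefore divided by the geometric mean of the CD3 chains, after adding 1 to the counts. On the log2 scale the ratio of Gzma to CD3 was 1.73 ± 1.12 with Scram+IgG, 0.80 ± 1.37 with ANT008+IgG, 1.70 ± 1.46 for Scram+aPD-1 and 1.60 ± 0.53 with ANT008+aPD-1 (SD, n = 3 each). Relative to CD3 RNA, the mean of Gzma with the combination was thus not above that with Scram+IgG. With 3 mice a group and such SDs, a difference could be missed. In log2 units the combination minus Scram+IgG was -0.13 for Gzma, -0.055 for Gzmb, 1.45 for Gzmd and -0.60 for Prf1. The two-sided exact permutation p was 1, 1, 0.3 and 0.4. Against the CD8 chains Cd8a and Cd8b1, which mark the T cells that most often carry granzymes, the differences were 0.19 for Gzma, 0.27 for Gzmb, 1.77 for Gzmd and -0.28 for Prf1, with exact permutation p of 1, 0.7, 0.3 and 0.8. The groups overlapped in all 8 ratios, and leaving out single mice turned the sign of the ratios of Gzma and Gzmb and that of Prf1 to CD8, which was 0.11 without Scram+IgG mouse 2. Within the combination the ratio of Prf1 to CD3 varied least, with a mean of 0.49 ± 0.077, though mouse 1 had 20 Prf1 counts. That of Gzmd varied from -3.15 in mouse 3 to -0.41 in mouse 1. Gzmd had 4 counts in mouse 3, not above background, and 11 in mouse 1 against a background of 9.94. In mouse 1 Cd3e and Cd8a were also at or below background, with 8 and 1 counts. The Gzmd differences of 1.45 and 1.77 thus rested in part on lanes near or below background.

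**Figure D4:**
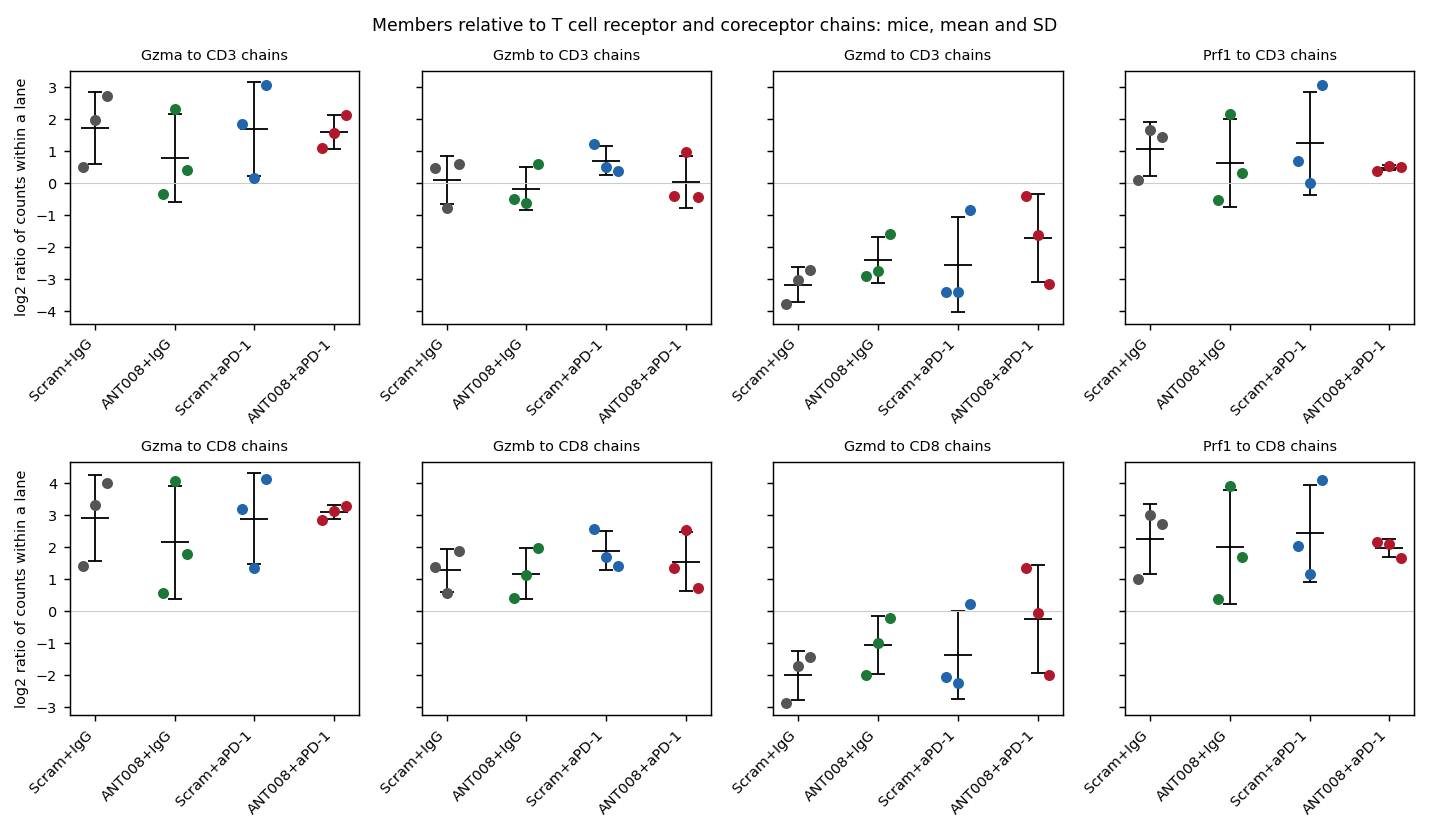
Log2 ratios of each gene to the CD3 chains (upper row) and to the CD8 chains (lower row) within each lane, by group, with 1 point per mouse and the mean and SD. The ANT008+aPD-1 mice fall within the range of the Scram+IgG mice for Gzma and overlap them for the other 3 genes.

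Across the 12 mice, Gzma and Prf1 went together. Their log2(scaled count + 1) had a Pearson r of 0.88 (permutation p = 0.00041, Benjamini-Hochberg adjusted p = 0.00246 over the 6 pairs of members) and a Spearman rho of 0.87 (permutation p = 0.00049, adjusted p = 0.00294). Without the 2 mice farthest from the median of Gzma, ANT008+IgG mouse 3 and Scram+aPD-1 mouse 2, r was 0.81. Both genes were divided by the same lane size, so an error in that size moves them together. The number of Prf1 counts per Gzma count, which is free of it, varied 3.12-fold over the lanes, while that of Gzmb per Gzma count varied 9.94-fold.

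The other 5 pairs had r between 0.35 and 0.59 and adjusted p-values from 0.118 to 0.259 for r, so a relation was not detected for them. For Gzmb and Gzmd, r was 0.59, and it was 0.35 without ANT008+IgG mouse 2 and Scram+IgG mouse 2. For Gzma and Gzmb, r was 0.45 and rho 0.41.

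The balance of Gzmb and Gzma varied from mouse to mouse inside each group. Gzmb counts per Gzma count were 0.980, 0.148 and 0.232 with Scram+IgG, 0.893, 0.128 and 1.13 in the ANT008+IgG mice, 0.650, 1.27 and 0.152 in the Scram+aPD-1 mice, and with ANT008+aPD-1 0.333, 0.672 and 0.164. Each group spread widely, though the highest lane with ANT008+aPD-1 was at 0.672, against 0.980 to 1.27 for the highest lanes of the other groups. The ratio was set beside another ratio within the lane, Dnajc14 counts per 100 Ubb counts, after the values had been seen. That ratio was 5.39, 19.0 and 9.72 with Scram+IgG, 4.77, 21.4 and 5.00 in the ANT008+IgG mice, 7.93, 6.03 and 23.6 in the Scram+aPD-1 mice, and with ANT008+aPD-1 19.0, 6.17 and 13.8. On the whole, lanes with more Dnajc14 per Ubb had less Gzmb per Gzma, but since the pair of housekeeping genes was picked after the values were known, this describes these 12 lanes and supports nothing further. Prf1 counts per Gzma count ran from 0.318 to 0.991. Ubb and Dnajc14 are both used for the lane size, and their part in this pattern was not tested.

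**Figure D5:**
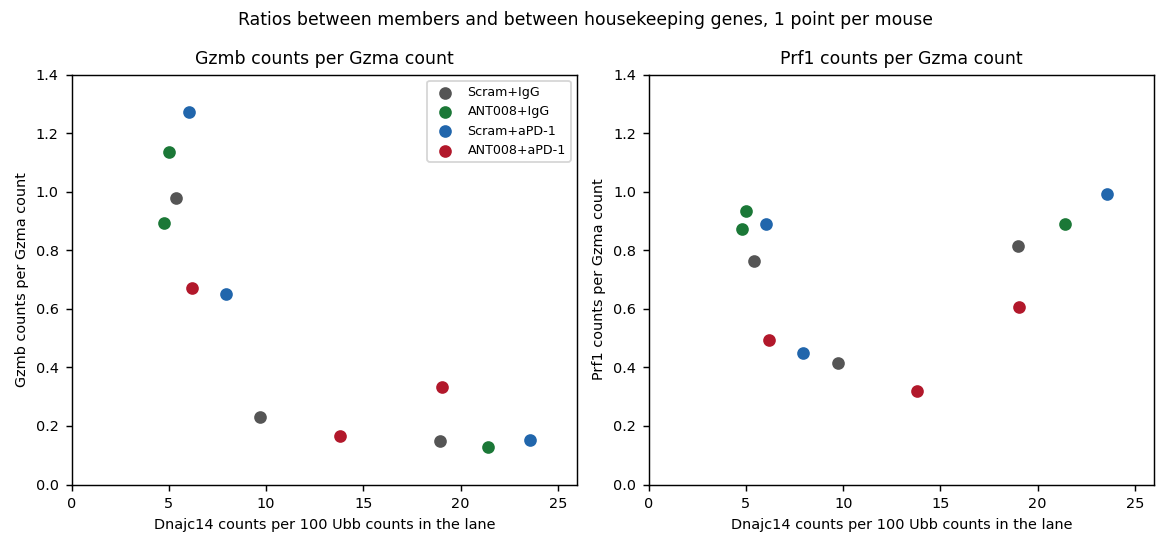
Gzmb counts per Gzma count (left) and Prf1 counts per Gzma count (right) against Dnajc14 counts per 100 Ubb counts in the same lane, 1 point per mouse, colored by group. On the left the lanes run from 1.27 to 0.128, on the whole lower where Dnajc14 is higher, and on the right from 0.991 to 0.318. The pair of housekeeping genes on the horizontal axis was picked after the values were known.

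Mast cells can also carry granzyme B, and their protease Cpa3 was set beside it. Scaled Cpa3 was highest in ANT008+IgG mouse 3, at 3181, and next in Scram+aPD-1 mouse 2, at 814, which were the lanes with the most Gzmb per Gzma. The next highest Cpa3, 592 in Scram+IgG mouse 2, went with a low Gzmb per Gzma of 0.148, and the next highest Gzmb per Gzma, 0.980 in Scram+IgG mouse 1, with a Cpa3 of 126, so the match ended with these lanes. The part of mast cell RNA in the Gzmb counts was not tested.

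The genes most like each member over the 12 lanes were taken from the endogenous genes above background in every lane, by Pearson r of log2(scaled count + 1). For Gzma they were Arg1 (0.91), Pdcd1lg2 (0.88) and Prf1 (0.88), of 141 candidates. For Gzmb they were the T cell kinase Lck (0.92) and the chemokines Ccl2 (0.91) and Ccl5 (0.89). Gzmd was most like the cytokine gene Tnf (0.83), the chemokine gene Ccl4 (0.81) and the CD3 zeta chain gene Cd247 (0.79), of 142 candidates. Prf1 was most like Gzma (0.88), the costimulatory receptor gene Cd28 (0.87) and the receptor kinase gene Zap70 (0.87). All values share the size of the lane, and the 12 lanes share depth differences, so these are descriptions.

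Other genes of the cytotoxic granule were few on the panel, and none was called at an FDR below 0.1. Of 7 genes listed for granzyme processing and inhibition, 2 were present, the cathepsin genes Ctsw, of killer cells, and Ctsl. Whether either acts on granzymes was not tested. With ANT008+aPD-1 against Scram+IgG Ctsw and Ctsl were at 0.59 and 0.44 on the log2 scale, with adjusted p-values of 0.668 for both in edgeR. Nkg7, a membrane protein of the granules, was the 1 of 9 storage and release genes on the panel, at 0.77. Of 19 substrates and cell death executors only Bcl2, which blocks mitochondrial cell death, was present, at 0.13. In ANT008+aPD-1 mouse 1, Ctsl and Bcl2 were at or below background, with 5 and 8 counts.

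Other ways of killing were represented by the death ligand gene Fasl and the cytokine genes Tnf, Lta and Ifng, 4 of 7 listed. All 4 were above 0 in that comparison, 3 of them with an unadjusted p below 0.05, with a median of 1.67 against 0.12 over all genes. Of all tested genes 56.7% were above 0 and 9.38% were higher with such a p, the shares against which the counts of this and the next lists stand. Lta was at 2.43 and Fasl at 1.80, each with an adjusted p of 0.309 in edgeR, Tnf at 1.44 and Ifng at 1.55, with 0.323 and 0.473. In ANT008+aPD-1 mouse 1, Fasl and Ifng were at or below background, with 9 and 7 counts, and Lta and Tnf had 11 and 10. Ifng was also at or below background in ANT008+aPD-1 mouse 3, with 7 counts, so only mouse 2 of that group had a measured level of it.

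Of the cytokines and receptors that induce cytotoxic genes, 3 of 14 were present, Il2, its receptor gene Il2ra and Il21r, all above 0 and 2 with an unadjusted p below 0.05. Il2ra was at 1.63 and Il2 at 2.93, both with an adjusted p of 0.309 in edgeR, but Il2 was at or below background in ANT008+aPD-1 mice 1 and 3, and Il2ra and Il21r in mouse 1, with 8 and 7 counts. The transcription factors that drive these genes were represented by 5 of 10, Tbx21, Eomes, Stat5a, Stat5b and Hif1a. None had an unadjusted p below 0.05, and their median was 0.95. Tbx21, which encodes T-bet, was at 1.38 and Eomes at 1.32. In ANT008+aPD-1 mouse 1 all but Hif1a were at or below background, with 4 to 9 counts.

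Markers of the cells that could carry these RNAs were compared in the same way. Of the T cell markers all 5 were above 0 with the combination, 1 with an unadjusted p below 0.05, with a median of 0.88, where 56.7% of all tested genes were above 0. Their summed scaled counts were 2336 to 2912 with the combination and 480 to 3377 with Scram+IgG. The CD8 chains disagreed, with Cd8b1 at 1.43 and Cd8a at -0.31, and Cd8a was at 1 count in ANT008+aPD-1 mouse 1. The 4 natural killer markers had a median of 0.78 and summed to between 1107 and 1586, against 199 to 1764 with Scram+IgG. Ncr1 was at or below background in ANT008+aPD-1 mice 1 and 3. The 4 myeloid markers on the panel, of 11 listed, summed to between 1468 and 2250, against 327 to 1351 with Scram+IgG. In the ANT008+aPD-1 mice they were above background in 9 of 12 combinations of gene and lane. Itgam and Cd163 had 8 and 2 counts in mouse 1, where a count at background scaled to 358, so the sums hold scaled background. The 4 had a median of 1.75, with Cd163 at 2.62, Cd14 at 2.36 (adjusted p = 0.242 in edgeR), Itgam at 1.15 and Cd68 at 0.56. Cd163 was also at or below background in ANT008+aPD-1 mouse 2, with 13 counts. The mast cell markers had a median of 0.33, with 3 of 5 on the panel, Cpa3 at -0.24, Fcer1a at 0.33 and Hdc at 1.21. They were above background in only 3 of 9 combinations of gene and lane in the ANT008+aPD-1 mice. Regulatory T cell markers had a median of 1.03 with 2 of 3 on the panel, Foxp3 at 0.44 and Il2ra at 1.63, and CD4 markers 1.14 with 2 of 2, but in the ANT008+aPD-1 mice each of these lists was above background in only 3 of 6 combinations of gene and lane. In addition, the fibroblast marker Pdgfrb, 1 of 6, was at 1.37 and at or below background in all 3 ANT008+aPD-1 lanes. No marker of tumor epithelium was on the panel. The part of these cells in the granzyme and perforin values was not tested.

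The promoters of Gzma, Prf1 and Gzmb are shown because the correlation over the mice was highest for the first 2, and Gzmb had an r of 0.45 with Gzma and 0.35 with Prf1. The 250 bases before each start were taken from RefSeq on GRCm38.p6, 5′ to 3′ along the gene. Capitals mark matches, on either strand, to the letters TGTGGT of the RUNX site, TGANTCA of the AP-1 site, TCACAC of the T-box site and TGACG, the short form of the cyclic AMP response element.
Gzma (chr13:113100982-113101231, minus strand): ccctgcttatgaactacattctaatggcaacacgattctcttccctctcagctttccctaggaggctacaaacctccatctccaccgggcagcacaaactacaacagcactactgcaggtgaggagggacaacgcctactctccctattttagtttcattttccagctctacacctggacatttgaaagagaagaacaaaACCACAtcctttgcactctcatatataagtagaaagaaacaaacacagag
Prf1 (chr10:61297586-61297835, plus strand): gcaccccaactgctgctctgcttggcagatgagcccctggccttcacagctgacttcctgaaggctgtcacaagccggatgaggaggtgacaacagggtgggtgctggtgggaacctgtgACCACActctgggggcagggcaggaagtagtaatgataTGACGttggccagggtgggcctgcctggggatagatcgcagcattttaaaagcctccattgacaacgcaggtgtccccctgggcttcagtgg
Gzmb (chr14:56262335-56262584, minus strand): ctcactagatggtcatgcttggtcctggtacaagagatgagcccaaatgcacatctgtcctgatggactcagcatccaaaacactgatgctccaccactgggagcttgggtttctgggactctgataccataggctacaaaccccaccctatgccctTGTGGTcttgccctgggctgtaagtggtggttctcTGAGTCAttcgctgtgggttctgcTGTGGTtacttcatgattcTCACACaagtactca
TGTGGT or its reverse complement was present in the promoters of all 4 genes, Gzmd included, and in 14.0% of 32851 promoters of this length. TGANTCA was found in Gzmb alone of the 4, and in 6.75% of all promoters. TCACAC was likewise found in Gzmb alone, and in 12.3% of all promoters. TGACG was found in Prf1 alone, and in 17.8% of all promoters. The full cyclic AMP response element TGACGTCA, a site of the pathway that VIP receptors signal through, was found in 0 of the 4 and in 1.55% of all promoters. No binding was measured in these mice, and a match describes letters in the window and not a used site.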

How the data were processed

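T cell RNA from 12 mice was hybridized to the nCounter Mouse Metabolic Pathways panel. The deposited file holds raw whole-number counts per probe and lane, as the authors exported them from the instrument's software, neither background-corrected nor normalized, and the vendor's panel definition gives the probe targets. How the authors normalized or tested single genes is not given in the sources used here. Groups and mouse numbers were read from the sample titles. P-values measure the spread between these mice.

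Genes were kept when their count exceeded the lane's background in 3 or more lanes. Tests used edgeR 4.0.16 in R 4.3.3 (glmQLFit and glmQLFTest) on the deposited counts, in 1 fit of all groups without covariates, and an FDR below 0.1. A housekeeping gene entered the lane size when it was above background everywhere, as 3 of 20 were. Standard errors were derived from the F statistic. Ratios were compared by exact permutation and correlations by 100000 permutations. The fit was tested on simulated data. Alternatives included other scalings, filters and background subtraction, DESeq2 1.42.0, limma 3.58.1, a replicate block and each mouse left out.

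The members and gene lists were chosen with earlier results of these data known. Named are the 4 members, the listed pathway and marker genes on the panel and, for each member, the 3 genes most like it. Dnajc14, Oaz1 and Ubb are named as the basis of the lane size. RefSeq held 767 of 768 panel symbols. The other experiments of the study were not analysed here.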

Additional observations from a re-analysis of the deposited data

How the results depend on the processing

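Of the log2 fold changes of the 4 genes under alternatives other than leaving out 1 mouse, 275 kept their direction and their side of the threshold, 38 changed sign and 9 passed the threshold. Positive control scaling accounted for 19 of the sign changes. Under it the combination against Scram+IgG was -3.27 for Gzma, -3.47 for Gzmb, -1.90 for Gzmd and -3.70 for Prf1, and against ANT008+IgG -1.52, -1.98, -2.12 and -2.39. Set against anti-PD-1 alone it was -2.93, -3.05 and -1.12 for the granzymes, and Scram+aPD-1 against Scram+IgG was -0.34, -0.42, -0.78 and -0.74 for the 4 genes. The interaction was -1.18, -1.56, -1.34 and -1.65. The median over all genes was then -4.37, -3.71, -3.56, -0.83 and -2.85 in these contrasts. Pearson r under positive control scaling was 0.94 for Gzma and Gzmb, 0.88 for Gzma and Gzmd, 0.94 for Gzmb and Prf1, and 0.89 for Gzmd and Prf1, all with a permutation p below the threshold. This scaling leaves the depth differences between lanes in the values of all genes. These r therefore cannot tell a relation between members from shared depth. With limma's voom and sample weights the 4 genes in the order above were called in ANT008+aPD-1 against Scram+IgG, at 2.09, 2.19, 3.15 and 1.58, as were Gzma against ANT008+IgG at 2.75, Gzmd with ANT008+IgG at 2.06, and Gzmb and Gzmd with Scram+aPD-1 at 2.26 and 1.20, and it called 156, 5, 44 and 143 genes of the panel in these 4 comparisons. DESeq2 called Gzmd in ANT008+aPD-1 against Scram+IgG at 2.85, and 30 genes of the panel there, 5 against ANT008+IgG and 5 against anti-PD-1 alone. TMM and total count scaling called 2 and 1 genes in the first of these. The cause of these differences was not tested.

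Other values also changed sign, and not only those near 0. The main fit had given -0.67 for Gzmb with ANT008+IgG, and 1.05 for Gzmb and 1.03 for Gzmd in the interaction. Voom gave 1.30 for Gzmb and 0.10 for Prf1 with ANT008+IgG, -0.079 for Gzmb and 0.50 for Prf1 in ANT008+aPD-1 against Scram+aPD-1, and -1.38 for Gzmb and -0.11 for Gzmd in the interaction. Limma on log2 scaled counts gave 0.13 for Gzmb with ANT008+IgG and 0.39 for Prf1 against Scram+aPD-1, where TMM gave 0.12, DESeq2 factors 0.091, DESeq2 0.088 and the total count 0.41. Scaling by Oaz1 and Ubb, chosen after seeing the data, gave 0.23 for Prf1 with ANT008+IgG and -0.41 in the interaction, and r of 0.57 for Gzmb and Gzmd and 0.58 for Gzmd and Prf1. The interaction of Prf1 was -0.045 with all housekeeping genes, -0.10 with background subtracted and -0.10 without the 2 lanes of lowest depth. Ratios to CD3 became 0.024 for Gzma with background subtracted and 0.028 for Gzmb over the sum of the chains. The filter requiring all 12 lanes gave no value for Gzmd.

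The labels do not pair the samples by mouse number, and the main fit did not pair them. Of 18 same-number pairs, 7 had correlations of their deviations over 0.1, and 3 of 12 mice correlated best with their own number. Scram+IgG mouse 1 correlated at 0.78 with ANT008+IgG mouse 1 and at 0.76 with Scram+aPD-1 mouse 1. Between the last named it was 0.68, while ANT008+aPD-1 mouse 1 had -0.25 to -0.11 with these mice. The lowest value of all pairs was -0.64. Such counts cannot decide whether equal numbers shared anything, which was not tested. With the replicate block no gene was called in any of the 6 contrasts, and in ANT008+aPD-1 against Scram+IgG Gzmd was 3.29 (adjusted p = 0.131 in edgeR), Gzmb 1.66, Gzma 1.54 and Prf1 0.91. Prf1 became 0.053 against Scram+aPD-1 and 0.043 with ANT008+IgG under the block.

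With each mouse left out in turn, the combination against Scram+IgG ran from 0.20 to 2.74 for Gzmb and from 2.21 to 3.95 for Gzmd, with 0 to 84 genes of the panel called. Against the antagonist alone 0 to 26 genes were called, against anti-PD-1 alone 0 to 35, and in the interaction 0 to 1. Against anti-PD-1 alone Gzmb ran from -0.16 to 1.19 and Prf1 from -0.47 to 0.90. The antagonist alone gave -1.17 to 1.32 for Gzmb and -0.62 to 0.60 for Prf1, and anti-PD-1 alone gave -0.45 to 2.35 for Gzmb and -0.027 to 1.54 for Prf1. The interaction ran from -0.94 to 1.85 for Gzmb, from -0.021 to 1.77 for Gzmd and from -0.61 to 0.95 for Prf1. The ratio to CD3 ran from -0.74 to 0.36 for Gzma and from -0.52 to 0.20 for Gzmb. The ratio to CD8 ran from -0.56 to 0.74 for Gzma, from -0.24 to 0.68 for Gzmb and from -0.90 to 0.11 for Prf1. Depth limits the lanes of the combination most, where 2 of 3 lanes had the lowest totals.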
